A study of Mus musculus with 24 samples.

Results

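Polycomb repressive complex 2 (PRC2) was followed through 10 genes in mouse embryonic stem cells (mESC) and neural progenitor cells (NPC) that differed in huntingtin genotype. Earlier results of these data were known when the list was made, but no rule on measured values was used. The genes were chosen by symbol from the known makeup of the complex: Ezh1, Ezh2, Eed, Suz12, Rbbp4, Rbbp7, Mtf2, Phf19, Jarid2 and Aebp2. They were 10 of the 17953 genes in the deposited mESC and NPC tables, each was present in both tables, and each passed the filter on low values in both. Total RNA was sequenced in 24 libraries, 12 per cell type, with 2 libraries for each of 6 genotypes of Htt, the mouse gene of huntingtin (also called Hdh). One genotype was wild type (WT), one lacked Htt (KO), and the other 4 carried a knocked-in Hdh allele in the heterozygous state, with 20, 50, 92 or 111 CAG repeats (Q20, Q50, Q92 and Q111); the growth protocol gives 89 in place of 92. The mESC were kept on gelatin with mouse embryonic fibroblast feeder cells and leukemia inhibitory factor, and the NPC were derived from mESC in N2B27 medium and then grown on laminin with FGF and EGF. The labels name a single knock-in series of 4 alleles and no second line of any allele, so an allele cannot be told apart from the line that carries it. How the knockout was made, and the origin of the WT and KO lines, are not given in the sources used here.

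PRC2 places methyl groups on lysine 27 of histone H3, a mark of silenced developmental genes in stem cells and neural progenitors. Ezh2 and its relative Ezh1 are the alternative catalytic subunits, Eed reads the mark and stimulates the enzyme, Suz12 is the scaffold, and Rbbp4 and Rbbp7 are histone-binding proteins shared with other chromatin complexes. Mtf2 and Phf19 are Polycomb-like proteins that define one variant of the complex, while Jarid2 and Aebp2 define the other. Huntingtin has been reported to stimulate PRC2, which is why RNA levels of the complex were compared across Htt genotypes.

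The mESC libraries held 58546211 to 81502284 reads and the NPC libraries 48525333 to 118038952, as recovered from the deposited values. The values are the authors' normalised CPM (read counts scaled for library size), and the fewest reads behind any member in any library was 502 (Phf19 in NPC). Htt itself stood at 137 and 177 CPM in NPC WT against 100 and 94.9 in NPC KO, a log2 difference of -0.67 (SE 0.14) with a limma adjusted p of 0.0673. In mESC it stood at 124 and 113 CPM in WT, at 139 in the library labelled KO 1 and at 68.5 in the library labelled KO 2, so Htt RNA in KO 1 was above both WT libraries and went against its label; which exons the knockout removes is not stated. Stem cell markers summed to 2126 to 4045 CPM in mESC and to 4.76 to 108 CPM in NPC. The 108 and 106 CPM of the NPC Q20 libraries came mostly from Pou5f1, the defining pluripotency factor, at 90.1 and 87.4 CPM; it was at most 0.405 CPM in the other 10 NPC libraries. Neural progenitor markers summed to 4007 to 9383 CPM in NPC and to 139 to 548 in mESC. Sets of libraries stood apart from their labels in both cell types. In mESC the libraries numbered 1 and 2 differed in the same way in every genotype, and in NPC the WT and KO libraries numbered 1 differed from those numbered 2 in cell division genes, whose 20 members summed to 2237 and 7446 CPM in WT and to 3249 and 8339 CPM in KO.

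Levels of different genes were set side by side only per kilobase of annotated exon. Rbbp7 was the most abundant member in each of the 12 groups, at mean levels of 122 to 157 CPM per kb in mESC and 61.5 to 126 CPM per kb in NPC. Rbbp4 was next in all 6 NPC groups, at 49.2 to 73.9 CPM per kb. In mESC the genes Mtf2, Jarid2, Eed, Suz12 and Rbbp4 formed a middle tier between 46.4 and 114 CPM per kb whose order changed with genotype, and Ezh2 ranked below them in all 6 groups at 17.7 to 27.4 CPM per kb. In NPC, Ezh2 (12.4 to 23.9 CPM per kb), Suz12 (16.7 to 30.4 CPM per kb) and Eed (12 to 24 CPM per kb) lay close together. The lowest member was Phf19 in every mESC group (2.7 to 4.36 CPM per kb) and either Ezh1 or Phf19 in the NPC groups. The mESC and NPC tables were scaled separately, so no level was tested between them. Side by side, Jarid2 ranged from 355 to 1020 CPM in mESC and from 63.6 to 201 CPM in NPC, and Mtf2 from 363 to 736 CPM and from 52.5 to 76 CPM.

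The promoters of the 2 catalytic genes are shown because Ezh2 and Ezh1 moved in opposite directions in NPC. Those of the 2 members with an E2F-like motif are shown because many cell division genes are E2F targets. Whether E2F acts on any member was not tested. The sequences are RefSeq windows on GRCm38.p6, limited to the longest stretch within the 250 bases before the annotated start that lies outside every GENCODE M21 exon, and are read 5′ to 3′ on the gene's strand. Capitals mark the motifs searched on both strands: TTTGGCGC, TTTCGCGC and TTTCCCGC (E2F-like), CCAAT and GGGCGG.
Ezh2: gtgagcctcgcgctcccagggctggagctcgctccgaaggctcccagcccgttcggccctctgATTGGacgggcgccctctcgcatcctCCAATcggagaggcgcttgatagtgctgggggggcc
Ezh1: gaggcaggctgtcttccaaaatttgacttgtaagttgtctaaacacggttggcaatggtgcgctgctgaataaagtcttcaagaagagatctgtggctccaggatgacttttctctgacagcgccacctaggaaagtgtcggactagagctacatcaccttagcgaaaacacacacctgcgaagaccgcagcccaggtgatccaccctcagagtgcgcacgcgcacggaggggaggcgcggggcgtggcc
Suz12: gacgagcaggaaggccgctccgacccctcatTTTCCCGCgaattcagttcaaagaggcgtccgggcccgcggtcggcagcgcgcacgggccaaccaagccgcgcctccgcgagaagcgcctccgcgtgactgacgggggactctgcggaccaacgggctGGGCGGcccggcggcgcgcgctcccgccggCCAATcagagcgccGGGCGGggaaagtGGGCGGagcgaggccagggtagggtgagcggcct
Phf19: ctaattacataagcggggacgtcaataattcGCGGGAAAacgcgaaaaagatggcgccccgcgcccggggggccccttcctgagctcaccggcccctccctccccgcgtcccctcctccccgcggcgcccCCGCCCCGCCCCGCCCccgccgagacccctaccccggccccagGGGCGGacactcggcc
The Ezh2 stretch is chr6:47595059-47595183 on the minus strand, that of Ezh1 chr11:101226464-101226713 on the minus strand, that of Suz12 chr11:79992856-79993105 on the plus strand and that of Phf19 chr2:34914027-34914215 on the minus strand. An E2F-like motif stood 219 bases before the start of Suz12 and 208 bases before that of Phf19, on opposite strands, and in no other of the 14 RefSeq windows of the 10 genes. Of 32851 windows of 250 bases in the RefSeq table, 1.53% held one. CCAAT was found in 7 of the 14 windows against 33.8% of all, with 3 copies in the full window of Ezh2, of which 2 lie in the stretch shown. GGGCGG was found in 9 of the 14 windows against 32.7% of all; matches of different motifs may overlap. The windows of Ezh1 and Eed held none of these letters, which says nothing of the factors that act there. Ezh2 lies on chromosome 6 from 47530139 to 47595341 and Ezh1 on chromosome 11 from 101191115 to 101226463, both on the minus strand of GRCm38 in GENCODE M21. They have up to 20 and 21 exons in a transcript. The Ezh2 stretch shown lies inside that GENCODE span, because the RefSeq start used is downstream of the GENCODE start.

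In NPC of the knock-in series, the core of the complex was higher in lines with longer CAG repeats, and the alternative catalytic subunit Ezh1 was lower. The trend is the fitted slope of log2(CPM + 1) over CAG length in the 8 knock-in libraries, given as the change across the 91 repeats from 20 to 111. For it limma called 6 of 10 members at an adjusted p under 0.05. Ezh2, Eed, Suz12, Rbbp4 and Rbbp7 rose and Ezh1 fell. Of all 13206 genes tested in NPC, 22% were called, 12% rising and 10.1% falling, 2909 genes in total. The median slope of the 10 members was 0.63 against 0.04 over all genes tested.

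Ezh2, the main methyltransferase of dividing cells, stood at 80.3 and 85 CPM in Q20, 124 and 130 in Q50, 163 and 149 in Q92, and 155 and 164 in Q111. Its level was lowest in both Q20 libraries and did not differ between Q92 and Q111 beyond their spread. The slope was 0.91 on the log2 scale (SE 0.15, limma adjusted p 0.00563), and the Q111 mean was 1.93-fold that of Q20. Ezh1, the methyltransferase of resting and differentiated cells, stood at 30.8 and 29.6 CPM in Q20, 14.6 and 11.9 in Q50, 11.2 and 14 in Q92, and 11.9 and 13.1 in Q111. The step lay between Q20 and the other lines, which overlapped one another. Its slope was -1.08 (SE 0.32, limma adjusted p 0.0472), and without the Q20 line the slope was -0.12 and was not called. Per kilobase, Ezh1 made up 24.7% of the Ezh1 and Ezh2 RNA in Q20 (25.6% and 23.8% in its libraries), 8.57% in Q50, 6.79% in Q92 and 6.56% in Q111.

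**Figure D1:**
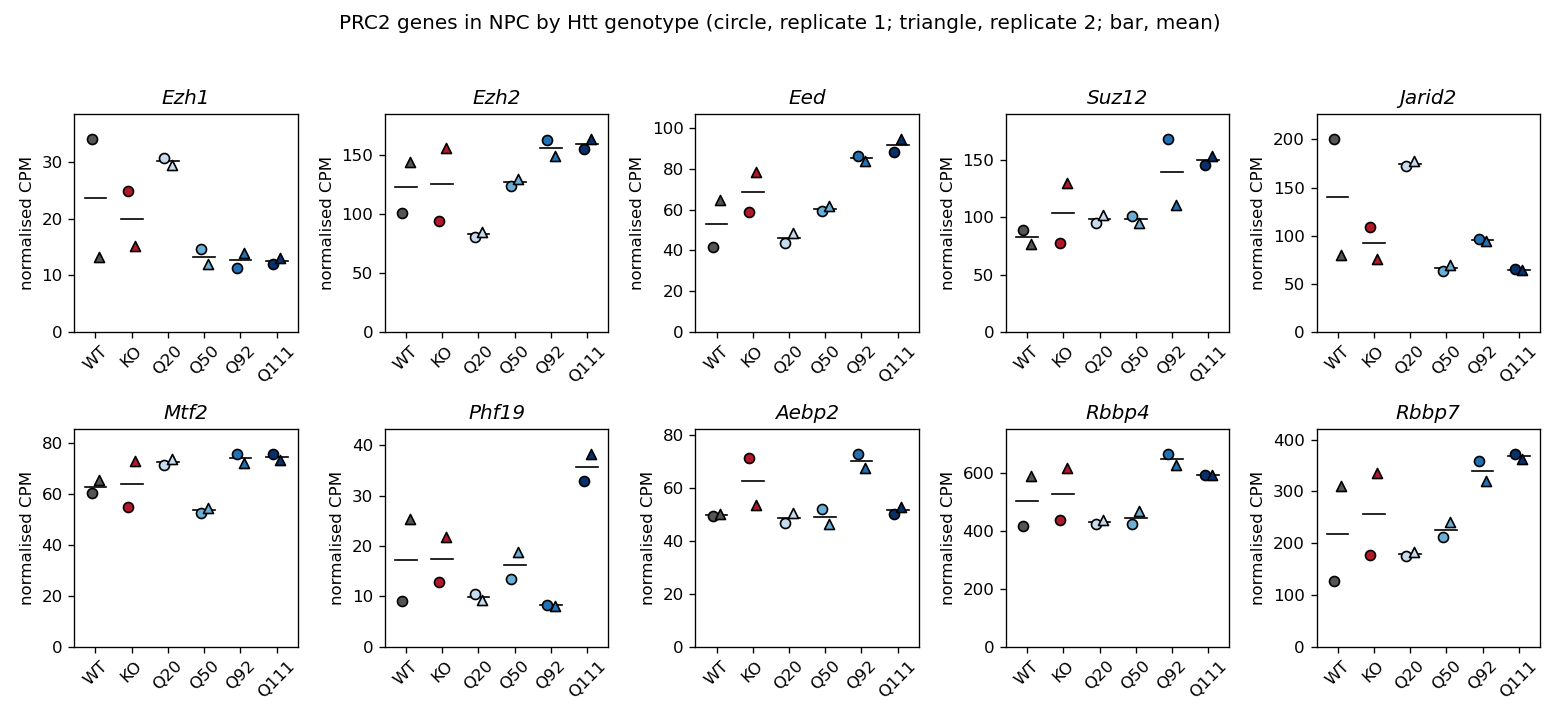
CPM of the 10 PRC2 genes (y axes, linear from 0) in the 12 NPC libraries by Htt genotype (x axes); circles are replicate 1, triangles replicate 2 and bars their mean. Ezh2, Eed and Rbbp7 step up from Q20 to Q111, Ezh1 is high in Q20, and the WT and KO pairs are far apart for most genes.

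Eed, the subunit that reads the methyl mark, stood at 43.4 and 48.7 CPM in Q20, 59.2 and 61.9 in Q50, 86.6 and 84.1 in Q92, and 88.6 and 95 in Q111. No 2 neighbouring lines in the order of repeat length overlapped. The slope was 1.00 (SE 0.12, limma adjusted p 0.00159), with a 1.99-fold higher mean in Q111 than in Q20. Rbbp7, a histone chaperone encoded on the X chromosome, gave the same stepwise order, at 176 and 182 CPM in Q20, 211 and 240 in Q50, 359 and 320 in Q92, and 373 and 363 in Q111. Its slope was 1.08 (SE 0.12, limma adjusted p 0.00112), the lowest adjusted p of the 10 members.

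Rbbp4, the close relative of Rbbp7, stood at 422 and 439 CPM in Q20, 422 and 468 in Q50, 667 and 626 in Q92, and 592 and 594 in Q111. The Q20 and Q50 lines overlapped, and the level in Q111 was below that in Q92. The slope was 0.59 (SE 0.15, limma adjusted p 0.0242). Suz12, the scaffold, stood at 95 and 102 CPM in Q20, 101 and 95.5 in Q50, 169 and 111 in Q92, and 146 and 154 in Q111. The Q92 libraries were far apart from each other, and Q20 and Q50 did not differ beyond their spread. The slope of Suz12 was 0.67 (SE 0.18, limma adjusted p 0.0348), the highest adjusted p among the 5 genes that rose. Because Rbbp7 rose by more than Rbbp4, its share of their summed level per kilobase went from 55.6% in Q20 to 65.1% in Q111.

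The 4 accessory subunits each had an order of their own. Jarid2, which helps bring the complex to chromatin, stood at 172 and 178 CPM in Q20, 63.6 and 69.3 in Q50, 96.4 and 94.2 in Q92, and 65.2 and 63.7 in Q111. It was high in Q20 alone among the knock-in lines, and WT replicate 1 reached 201 CPM while WT replicate 2 stood at 79.6. Jarid2 was lower in Q50 than in Q20 by limma (log2 -1.39, SE 0.36, adjusted p 0.0317) and lower in Q111 than in Q20 (log2 -1.43, SE 0.36, adjusted p 0.0226), but its slope of -1.02 was not called (adjusted p 0.0908). Phf19, a Polycomb-like protein, stood at 10.4 and 9.22 CPM in Q20, 13.5 and 18.8 in Q50, 8.29 and 8.13 in Q92, and 32.9 and 38.4 in Q111. It was high in Q111 and lowest in Q92, so its order did not follow repeat length. The difference between Q111 and Q20 was 1.76 on the log2 scale (SE 0.43, limma adjusted p 0.0193), 3.62-fold between the means, and the slope of 1.04 was not called (adjusted p 0.258).

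Aebp2, the partner of Jarid2, stood at 46.5 and 50.3 CPM in Q20, 51.8 and 46.4 in Q50, 72.9 and 67.6 in Q92, and 50 and 52.9 in Q111, a peak in Q92 (log2 0.53 against Q20, SE 0.16, limma adjusted p 0.0406). That call was lost under median-of-ratios scaling, where the value was 0.48, and with edgeR on the recovered reads, where it was 0.46. Mtf2, the other Polycomb-like protein, was lowest in Q50 (52.5 and 54.7 CPM) and lay between 71.6 and 76 CPM in the other 6 knock-in libraries; none of its pairwise changes or its slope of 0.18 was called. Per kilobase, Mtf2 and Phf19 together made up 39.1% of the RNA of the 4 accessory genes in Q20, 51.6% in Q50, 46.4% in Q92 and 63% in Q111.

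**Figure D2:**
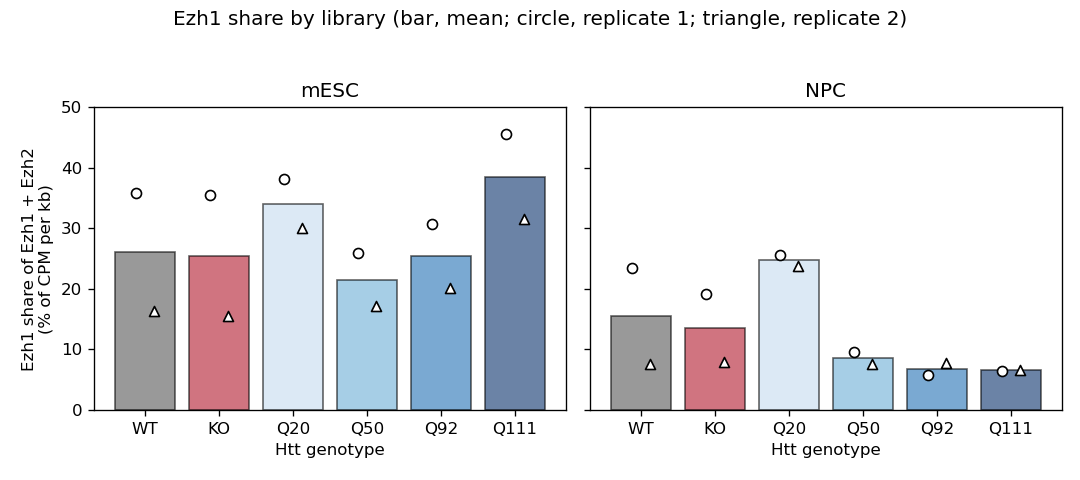
Share of Ezh1 in the summed Ezh1 and Ezh2 level (y axis, percent of CPM per kb) by Htt genotype (x axis) in mESC and NPC; bars are means of 2 libraries and points the libraries. In NPC the share falls from 24.7% in Q20 to 6.56% in Q111, and in mESC every replicate 1 library lies above its replicate 2.

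The pairwise comparisons of the knock-in lines share the Q20 libraries. Against Q20, limma called 1 member in Q50 (Jarid2; 18.8% of all genes were called), 3 in Q92 (Ezh2, Eed and Aebp2; 25.8% of all genes) and 4 in Q111 (Ezh2, Eed, Jarid2 and Phf19; 28.3% of all genes). For Ezh2 the differences were 0.90 in Q92 (SE 0.24, adjusted p 0.0272) and 0.94 in Q111 (SE 0.24, adjusted p 0.023). For Eed they were 0.88 (SE 0.22, adjusted p 0.02) and 0.98 (SE 0.22, adjusted p 0.0127). The counts of 1, 3 and 4 of 10 members lie near these backgrounds. Leaving out any 1 library of either group ended each of these pairwise calls, except that Eed was still called in Q111 without Q20 replicate 2; in those fits the Ezh2 differences lay between 0.84 and 0.98. With WT in place of Q20 as the reference the counts were 0, 0 and 1, where 874, 1144 and 2197 of all genes were called. The test for any difference among the 4 lines called Ezh2, Eed, Jarid2 and Phf19, 4 of 10, where 41% of all genes were called.

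The slope had 4 lines behind it and not 8 independent units. With 1 mean value per line, limma called 0 of 10 members and 0 of all genes, and 4 members had an unadjusted p under 0.05. Without the Q20 line it called Eed (0.91), Rbbp7 (1.09) and Mtf2 (0.75), and without any single library of Q20 or Q111 it called Ezh2, Eed and Rbbp7 alone. The call of Ezh1 was also lost without either Q92 library (adjusted p 0.0812 and 0.0682) and that of Suz12 without either Q50 library (adjusted p 0.0514 and 0.0503). Ezh2, Eed and Rbbp7 were called whichever of the 8 libraries was left out.

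**Figure D3:**
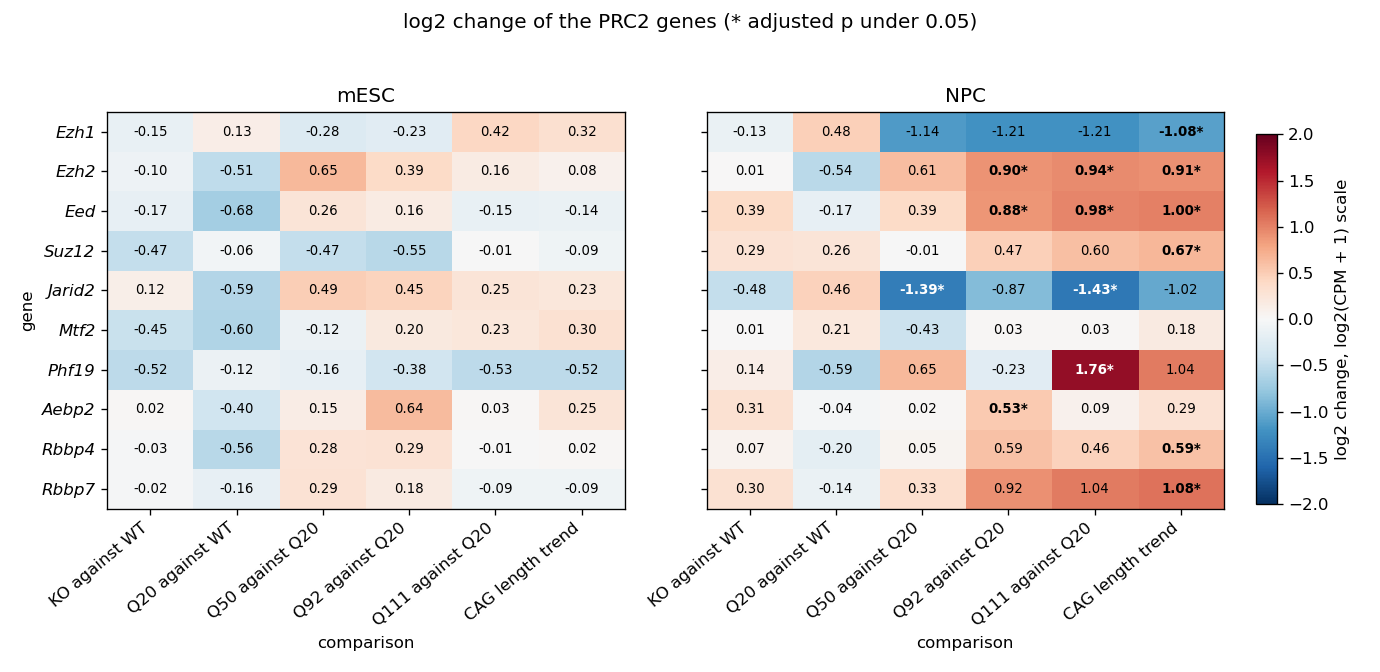
log2 change of each PRC2 gene (rows) in the 5 pairwise comparisons and the CAG length trend (columns) in mESC and NPC; colour and number give the change on the log2(CPM + 1) scale and an asterisk marks a limma adjusted p under 0.05. All asterisks lie in NPC, in comparisons with Q20 or in the trend.

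The other gene groups and cell type markers were counted along the same NPC trend, in which 12% of all genes rose and 10.1% fell. Of 20 cell division genes, 18 rose with repeat length by limma and none fell, with a median slope of 1.38 against 0.04 over all genes; Pcna, the DNA replication clamp, had a slope of 1.79 (SE 0.14, adjusted p 0.000665) and Ccna2, cyclin A2, one of 1.44 (SE 0.13, adjusted p 0.000828). Their summed level was 3223 and 3392 CPM in Q20, 4231 and 4817 in Q50, 6659 and 6022 in Q92, and 9439 and 9828 in Q111. Against Q20, limma called 0 of these 20 genes in Q50 (18.8% of all genes), 0 in Q92 (25.8%) and 3 in Q111 (28.3%). In the test among the knock-in lines it called 0 of them (41% of all genes). Those fits used the spread of all 12 libraries, with the wide WT and KO pairs, and the trend did not. Astrocyte markers fell in 4 of 7 genes (Aqp4, Aldoc, Gfap and Slc1a2), and their sum went from 2610 and 2306 CPM in Q20 to 287 and 276 in Q111. Fibroblast markers, listed for the feeder layer, fell in 6 of 9 genes tested; their sum was 368 and 305 CPM in Q20, 924 and 957 in Q50, 113 and 126 in Q92, and 41.3 and 40.1 in Q111. In the remaining lists 1 to 3 genes were called. Of the oligodendrocyte lineage markers 1 of 6 rose (Cspg4), and of the neuron markers 1 of 8 fell (Dcx), both near the background. Neural progenitor markers rose in 2 (Nes and Olig2) and fell in 1 (Hes5) of 9. Pluripotency markers rose in 1 (Klf4) and fell in 2 (Pou5f1 and Nanog) of 4. Pou5f1 and Nanog passed the filter on low values only through the Q20 libraries, so their falls from Q20 were fixed in advance. Primitive endoderm and early lineage markers fell in 1 of 6 (Sparc). In bulk RNA, fewer cells of a type and less RNA per cell cannot be told apart, and the part of cell division and cell makeup in the PRC2 values was not tested.

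The WT and KO libraries, which the trend did not use, give the same kind of values side by side. WT replicate 1, with a cell division sum of 2237 CPM, had Ezh2 at 101, Eed at 41.4, Rbbp7 at 126, Ezh1 at 34.2 and Jarid2 at 201 CPM. WT replicate 2, with a sum of 7446 CPM, had them at 144, 64.6, 310, 13.3 and 79.6 CPM. For Rbbp7, Ezh1 and Jarid2 the gap between the WT libraries was about as wide as that between Q20 and Q111. The KO pair was split likewise, with Ezh2 at 94.2 and 156, Rbbp7 at 177 and 335, and Ezh1 at 24.9 and 15.1 CPM. Phf19 stood at 9.02 and 25.3 CPM in WT and 12.9 and 21.9 in KO, but was low in Q92 at sums of 6659 and 6022 CPM.

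**Figure D4:**
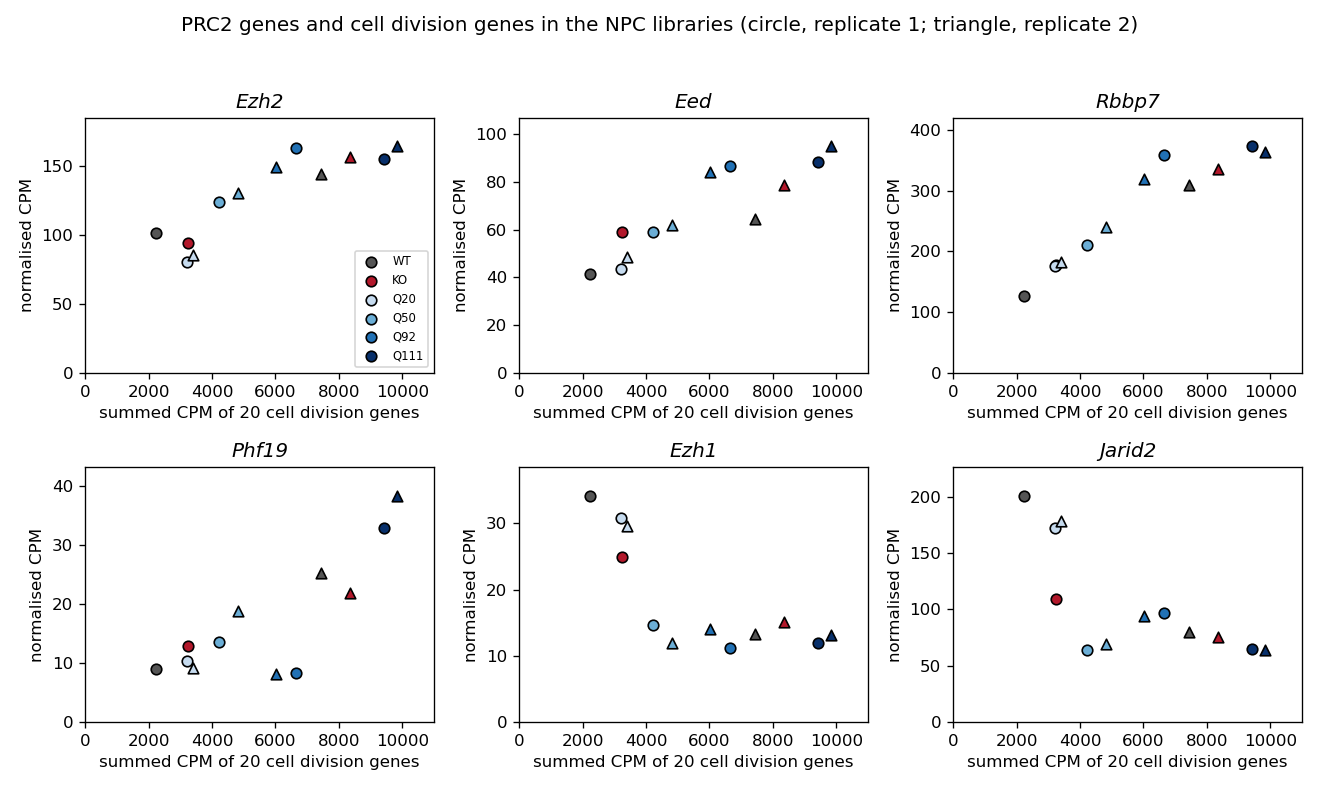
CPM of 6 PRC2 genes (y axes, from 0) against the summed CPM of 20 cell division genes (x axes) in the 12 NPC libraries, coloured by Htt genotype. Ezh2, Eed and Rbbp7 are higher in libraries with a larger sum. WT and KO replicate 1 share the low end of the sum with the Q20 libraries, and Ezh1 and Jarid2 are highest there. Among the other libraries Ezh1 and Jarid2 do not fall steadily with the sum. Circles are replicate 1 and triangles replicate 2.

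Over all 12 NPC libraries, the 5 genes whose centred log2 values differed least from those of Ezh2, by root mean square difference, were Msl3 (0.08), Cenpj (0.10), Hnrnpd (0.10), Gatad1 (0.10) and Txnl1 (0.10). The median over 13205 genes was 0.52, and the deviation of Ezh2 from its own mean was 0.36. Among the members, Eed ranked 97 (0.17), Rbbp4 165 (0.19) and Rbbp7 652 (0.24), while Ezh1 and Jarid2 ranked 11026 and 11052, each with a difference of 0.89.

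Between the NPC libraries labelled KO, in which Htt RNA was still present at 100 and 94.9 CPM, and WT, no change of a PRC2 gene was called. Limma called 0 of 10 members between KO and WT, where 1.42% of all genes were called; 0 members had an unadjusted p under 0.05, and edgeR called 0. The log2 differences ran from -0.48 (Jarid2) to 0.39 (Eed), with a median of 0.10 against 0.03 over all genes. For Ezh2 the difference was 0.01 (95% interval -0.54 to 0.56), for Eed 0.39 (-0.11 to 0.89), for Suz12 0.29 (-0.31 to 0.89) and for Rbbp4 0.07 (-0.39 to 0.52). These intervals used a spread pooled over every NPC genotype. The standard deviation of Ezh2 was 31 CPM in WT and 43.8 in KO, against 3.29 to 9.93 in the knock-in lines. The interval of Ezh2 is therefore too narrow for these groups. It cannot decide whether Ezh2 changed by as much as between Q20 and Q111. The same limit holds for Eed, with 16.4 in WT and 14.1 in KO against 1.82 to 4.54 in the knock-in lines. It also holds for Rbbp4 (120 and 126 against 1.22 to 32.2) and Rbbp7 (131 and 112 against 3.86 to 27.6). The intervals of Ezh1 (-1.06 to 0.79), Rbbp7 (-0.63 to 1.23) and Phf19 (-0.85 to 1.12) were wide. Aebp2 was the only member in which KO and WT did not overlap, at 71.3 and 53.5 CPM against 49.2 and 49.9 (log2 0.31, limma adjusted p 0.472). The share of all genes without overlap was not counted, so this separation is not read as a result about Aebp2. The comparison rested on which WT library was kept: without WT replicate 2, limma called Jarid2 lower in KO (log2 -1.14, adjusted p 0.0165) and Eed higher (log2 0.70, adjusted p 0.05), along with 1577 of all genes.

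The shortest knock-in allele was also compared with WT. In NPC limma called 0 of 10 members, with 0 at an unadjusted p under 0.05 and 0 called by edgeR, where 14.5% of all genes were called. Without WT replicate 1, the log2 differences of Q20 from the remaining WT library were 1.13 for Ezh1, 1.13 for Jarid2 and -1.28 for Phf19. More of all genes were called in that fit than with all libraries. These values are therefore not read as a result about the members.

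In mESC, 5 members differed between the 2 numbered sets of libraries, 3 of them higher and 2 lower in replicate 2. With genotype as a term, limma called these 5 of 10 members where 43.3% of all genes were called, a share near that background. Ezh1 was lower in replicate 2 of every genotype, by ratios of 0.385 to 0.514 (log2 -1.11, SE 0.08, adjusted p 0.000127). Eed was 1.32 to 2.66 times as high (log2 0.99, SE 0.12, adjusted p 0.000707), Jarid2 1.6 to 2 times (log2 0.86, SE 0.06, adjusted p 0.000124) and Aebp2 1.5 to 2.2 times (log2 0.79, SE 0.08, adjusted p 0.000368), each in 6 of 6 genotypes. Suz12 was lower in 5 of 6 (log2 -0.40, SE 0.13, adjusted p 0.0359). Leaving out both libraries of a genotype in turn gave 4 to 5 called members, with 4 without Q20, Q50 or Q111. Cell division sums in mESC ran from 8476 to 11404 CPM and were higher in replicate 1 of every genotype. They were 11404 and 9337 CPM in WT, for example, and 10201 and 9667 in Q50. Their part in the replicate difference was not tested. The labels do not say what the numbers stand for, and in NPC the same comparison called 0 members and 0 of all genes, with 816 of all genes at an unadjusted p under 0.05.

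**Figure D5:**
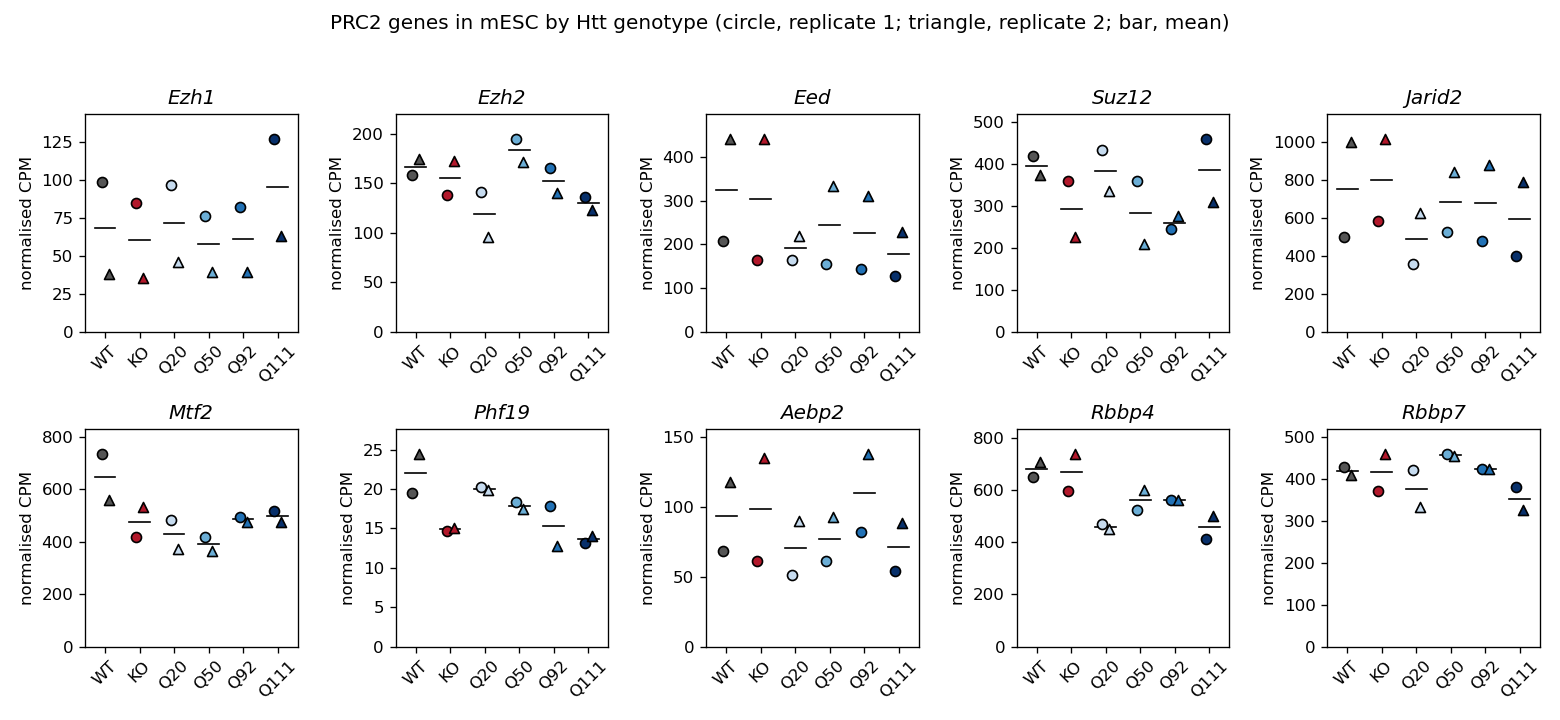
CPM of the 10 PRC2 genes (y axes, linear from 0) in the 12 mESC libraries by Htt genotype (x axes); circles are replicate 1, triangles replicate 2 and bars the means. Ezh1 is higher in every circle and Eed, Jarid2 and Aebp2 in every triangle.

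Across genotypes in mESC, limma without a term for replicate called no member in any comparison. The counts were 0 of 10 between KO and WT (0.0144% of all genes called), Q20 and WT (0.323%), Q50 and Q20 (0.00719%), Q92 and Q20 (0.00719%) and Q111 and Q20 (0%), along the CAG trend (0%) and among the knock-in lines (0.0719%). In that order, 0, 3, 1, 0, 0, 1 and 0 members had an unadjusted p under 0.05, and edgeR called 0 in each. With the replicate number as a block in limma, the unadjusted counts were 2, 6, 3, 4, 3, 2 and 5 members. Of the 13916 genes tested, 1610, 3891, 2420, 2238, 1126, 808 and 2689 then had an unadjusted p under 0.05. Ezh2 stood at 158 and 174 CPM in WT, 138 and 172 in KO, 141 and 95.6 in Q20, 195 and 171 in Q50, 165 and 140 in Q92, and 136 and 123 in Q111. Its level was highest in Q50 and lowest in Q20 replicate 2, with a slope over repeat length of 0.08. The knockout difference of Ezh2 was -0.10 (95% interval -0.61 to 0.40) and that of Eed -0.17 (-1.58 to 1.24). That of Rbbp7 was -0.02 (-0.42 to 0.38). These intervals came from the fit without the block, in which the difference between replicate numbers counts as spread.

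Suz12, Mtf2 and Phf19 had lower values in both mESC KO libraries than in both WT libraries. The share of all genes with such a separation was not counted, so it is not read as a result about these members. Htt RNA in KO 1 was also above both WT libraries, against its label. Suz12 stood at 418 and 373 CPM in WT and 359 and 226 in KO, Mtf2 at 736 and 560 in WT and 416 and 531 in KO, and Phf19 at 19.5 and 24.5 in WT and 14.7 and 15.1 in KO. The KO means were 0.739, 0.731 and 0.678 times those of WT, and none was called (limma adjusted p 1 for each; 0.473, 0.381 and 0.37 with a replicate block). Phf19 was also the only member whose mESC means moved one way over the repeat lengths, from 20.2 and 19.9 CPM in Q20 to 13.2 and 14 in Q111, a slope of -0.52 that was not called.

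With the replicate number as a block, which pairs the mESC libraries, 2 members were called lower in Q20 than in WT, where 10.6% of all genes were called and 4.69% were called lower. Jarid2 went from 501 and 1003 CPM in WT to 355 and 628 in Q20 (log2 -0.59, SE 0.10, limma adjusted p 0.0178), and Rbbp4 from 651 and 707 to 468 and 449 (log2 -0.56, SE 0.11, limma adjusted p 0.0257). In the same comparison feeder fibroblast markers were called higher in 2 of 8 genes without the block. With the block 5 were called, counted without regard to direction. The sum of these markers was 52.4 and 48.6 CPM in WT and 84.1 and 94.3 in Q20. Pluripotency markers were called in 0 of 10 genes without the block and in 2 with it, and summed to 4045 and 3623 CPM in WT and 2126 and 3007 in Q20. Cell division genes were called in 0 of 20 without the block and in 5 with it (median difference -0.34 against -0.04 over all genes), and summed to 11404 and 9337 CPM in WT and 9840 and 8476 in Q20. Primitive endoderm and early lineage markers were called in 0 of 8 without the block and in 5 with it, and summed to 229 and 218 CPM in WT and 204 and 267 in Q20. The part of these groups in the Jarid2 and Rbbp4 values was not tested.

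The difference between cell types in the trend was tested for all 10 members over the 16 knock-in libraries. Rbbp7 alone was called, with a slope 1.17 higher in NPC than in mESC on the log2 scale (SE 0.22, limma adjusted p 0.00848), where 4.86% of all genes were called. In mESC it stood at 422 and 333 CPM in Q20, 459 and 455 in Q50, 425 and 423 in Q92, and 381 and 326 in Q111, without an order by length, while in NPC every longer line was above the shorter one. For Ezh2 the difference of slopes was 0.83 (95% interval 0.14 to 1.53, adjusted p 0.162) and for Ezh1 -1.40 (-2.73 to -0.07, adjusted p 0.221). For Eed it was 1.14 (adjusted p 0.182), and with the replicate block it was called (adjusted p 0.0152), where 8.16% of all genes were called. The knockout difference did not differ between cell types for any member by limma (0 of 10 called, 0.0406% of all genes, 0 members at an unadjusted p under 0.05).

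Genes that work with or against PRC2 were counted from lists. In mESC none of them was called by limma in KO against WT or along the trend. In NPC, none of 3 other PRC2-associated genes and none of 3 H3K27 demethylases was called in KO against WT or along the trend. Against Q20, Phf1, a Polycomb-like protein, was lower in Q111 (log2 -0.57, SE 0.18, limma adjusted p 0.0433), and the Y-linked demethylase Uty was lower in Q50 (log2 -6.06, SE 0.24, limma adjusted p 3.07e-06). Uty was also higher in Q20 than in WT (log2 0.88, SE 0.24, limma adjusted p 0.046). Phf1, Uty and the demethylase Kdm6b (limma adjusted p 0.0379) were called in the test among the knock-in lines, where 41% of all genes were called. Among 24 genes of PRC1, the complex that binds the PRC2 mark, 3 rose and 1 fell along the trend, with a median slope of 0.28 against 0.04 over all genes; of all genes 12% rose and 10.1% fell, so these counts are at or below the background and are given for the single genes. Cbx7, a PRC1 reader of the methyl mark, stood at 28 and 33.9 CPM in Q20, 27.2 and 22 in Q50, 1.75 and 2.75 in Q92, and 2.45 and 3.56 in Q111 (slope -3.62, SE 0.52, adjusted p 0.00322). It was thus present in Q20 and Q50 and low in both longer lines. Pcgf5, a PRC1 ring-finger protein, went from 6.29 and 7.43 CPM in Q20 to 20 and 17.9 in Q111 (slope 1.17, SE 0.25, adjusted p 0.0134). The other genes that rose were Bmi1 (slope 1.14) and Kdm2b (slope 0.74).

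Of 13 genes of the NuRD and CAF-1 complexes, which share Rbbp4 and Rbbp7 with PRC2, 6 rose and 1 fell (12% and 10.1% of all genes), with a median slope of 0.55. Chaf1a, the large subunit of the replication-coupled chaperone CAF-1, went from 51.2 and 46.1 CPM in Q20 to 131 and 136 in Q111 (slope 1.48, SE 0.16, adjusted p 0.00117), and Mbd3 of NuRD went from 43.9 and 43.5 to 118 and 105 (slope 1.29, SE 0.16, adjusted p 0.00201). Chaf1b, Hdac2, Gatad2a and Mbd2 also rose, with slopes of 0.56 to 1.61, and Chd3 fell (slope -1.41). Of 11 Trithorax-type methyltransferase genes, which act on lysine 4 of histone H3, 2 rose and 1 fell, near the background of 12% and 10.1%, with a median slope of 0.25; Paxip1 (slope 1.10, SE 0.18, adjusted p 0.0051) and Dpy30 (slope 0.68, SE 0.15, adjusted p 0.0152) rose and Kmt2c fell (slope -0.58). Ash2l, a core subunit of the same enzymes, was the 1 gene of that list called between NPC KO and WT, at 145 and 166 CPM in WT and 261 and 275 in KO (log2 0.78, SE 0.11, adjusted p 0.0181).

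Developmental genes known as Polycomb targets in stem cells were mostly silent. Of 31 listed, 14 were tested in mESC and 15 in NPC, the rest being under the filter or not analysed here. Along the NPC trend 5 of the 15 fell and none rose, where 10.1% of all genes fell (median slope -0.85). Pax7 had a slope of -1.53 (SE 0.22, limma adjusted p 0.00321), from 2.11 and 2.1 CPM in Q20. Lhx5 had one of -1.37 (SE 0.26, limma adjusted p 0.00982), from 1.8 and 1.67 CPM in Q20. It was at most 0.387 CPM in every other NPC library and passed the filter on low values only through Q20. Its fall was thus fixed in advance and is no support for the count. Gata3, Pax3 and Cdkn2a, an inhibitor of the cell cycle, also fell. Between NPC KO and WT, where 1.42% of all genes were called, 3 of the 15 were higher in KO and none lower, with a median difference of 0.03, equal to that over all genes. Hoxa9, a posterior patterning gene, stood at 1.02 and 1.25 CPM in WT and 24.9 and 31.7 in KO (log2 3.77, SE 0.16, adjusted p 5.8e-05). Outside the knockout it was also high in Q92, at 30.6 and 26.9 CPM, and at most 0.236 CPM in Q20, Q50 and Q111. Pax7, a dorsal neural tube factor, stood at 0.28 and 0.43 CPM in WT and 4.59 and 3.26 in KO (log2 1.85, SE 0.18, limma adjusted p 0.00357). Gata4, an endoderm factor, stood at 0.49 and 1.3 in WT and 5.68 and 4.76 in KO (log2 1.74, SE 0.19, limma adjusted p 0.00631). It passed the filter on low values only because of the KO libraries, so its rise is no independent support for the count. In the same comparison no PRC2 gene was called, and astrocyte and fibroblast markers were each lower in KO in 1 gene (Aldh1l1 and Col3a1); their part in the target values was not tested.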

How the data were processed

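RNA of 24 libraries was measured, and the groups, replicates and repeat lengths came from the sample titles. Per the submitters' processing notes, reads were handled with CASAVA 1.8 and STAR on GRCm38.p6; the counting tool, its use of strand and the scaling are not given in the sources used here. Mtf2, Rbbp4, Rbbp7, Suz12, Phf19, Ezh2, Eed and Jarid2 overlap an annotated gene on the opposite strand, so reads of such partners could be shared. The authors deposited 1 table per cell type, whose unit is a signal: CPM after a normalization of theirs. Column totals ran from 900342 to 1080734; 100% of values were whole multiples of 1 read (tolerance 0.01 read), which gave the recovered reads.

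Tests ran in limma 3.58.1 (R 4.3.3) on log2 values of CPM with a pseudocount of 1 (variance trend, two-sided, Benjamini-Hochberg adjustment over all genes with at least 1 CPM in at least 2 libraries: 13916 in mESC, 13206 in NPC, 12321 in both). Fold changes on this scale understate low genes. Group comparisons shared the spread of all 12 libraries of a cell type; the trend used the 8 knock-in libraries. P-values measure the spread between these libraries, called biological samples in the series text. Alternatives were edgeR 4.0.16 on the recovered reads, pseudocounts of 0.25 and 5, other filters and scalings, the length 89, left-out libraries or lines and a replicate block. Added after seeing the data were edgeR with the block, the comparison of replicate numbers, and the line means and left-out libraries for the difference between cell types. Differences between replicates 2 and 1 correlated between genotypes in mESC (0.25 to 0.547 over 15 pairs of groups, all over 0.1), so the numbers pair those libraries; the NPC check is given with the alternatives. The scripts were tested on simulated data.

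Positions and exon lengths came from GENCODE M21. The members and lists were chosen with earlier results of these data known. The text names all 10 members, Htt, the 2 called genes of each other list with the smallest adjusted p in KO against WT and in the trend, and the 5 genes closest to Ezh2; the remaining called genes of short counts, the marker genes and Gata4, which is on both the target and the early lineage list, were named after their values were seen.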

Additional observations from a re-analysis of the deposited data

Results flagged for a closer look

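Rbbp7 differed between cell types in its CAG length trend: the slope over the 91 repeats was 1.17 higher in NPC than in mESC on the log2 scale (SE 0.22, 95% interval 0.70 to 1.64, limma adjusted p 0.00848). Its NPC level rose from 176 and 182 CPM in Q20 to 373 and 363 in Q111, and its mESC level was 422 and 333 CPM in Q20 and 381 and 326 in Q111. The difference lay between 1.03 and 1.38 when each of the 16 knock-in libraries was left out in turn and was called each time; with 1 mean value per line it was not called. Cell division sums rose from 3223 and 3392 to 9439 and 9828 CPM over the same NPC lines and were 8476 to 11404 CPM in mESC; their part in the difference was not tested.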

How the results depend on the processing

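The 15 single-gene values of members rerun under the alternatives (8 pairwise NPC changes, 6 NPC slopes and the Rbbp7 difference between cell types) kept their direction in each; the other named genes and the blocked mESC calls were not rerun. The counts of members called depended on the fit in NPC. In Q50 against Q20 it was 1, with the count of all genes called in brackets (2478). It was 2 after quantile normalization (2688), 4 with the libraries of both groups only (3927) and 0 with WT as the reference (874). In Q92 against Q20 it was 3 (3407), but 7 with both groups only (6160) and 0 against WT (1144). In Q111 against Q20 it was 4 (3743), but 8 (6712) and 1 (2197). The higher counts thus came with more calls over all genes. For the trend it was 6 (2909), but 3 after quantile normalization (2338) and 3 with edgeR and the replicate block (1908). It was 3 without the Q20 line (1880) and 0 with 1 mean value per line (0). The difference of trends between cell types gave 1 member (599) and 2 with the replicate block (1005). It gave 0 with 1 mean value per line (0). In mESC the replicate block gave 2 members in Q20 against WT by limma (1475) and 2 by edgeR (1282), and changed no other mESC count. The block gave 4 members along the NPC trend (2015), and 145 genes in place of 188 in NPC KO against WT. In NPC the differences between replicates correlated over 0.1 in 3 of 15 pairs of groups: r was 0.467 between KO and WT and -0.0495 to 0.0218 between knock-in lines. The labels do not say that a number marks a shared source, so NPC libraries were not taken as paired; with the block 0 members were called in KO against WT, with Eed at 0.39 (adjusted p 0.418) and Aebp2 at 0.31 (adjusted p 0.465).

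Leaving out 1 library at a time gave 0 to 2 members in NPC KO against WT, 0 to 3 in Q20 against WT, 0 to 0 in Q50 against Q20 and in Q92 against Q20, 0 to 1 in Q111 against Q20, 3 to 6 in the trend, 0 to 2 among the knock-in lines and 1 to 2 in the difference of trends. For the mESC replicate numbers, leaving out both libraries of a genotype gave 4 to 5. A lone remaining library was assumed to vary like the other groups. The count of all genes called also changed in the NPC fits and in the difference of trends. These counts are therefore not read as a result about the members. With 2 libraries per group, the cause of each changed count was not tested.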
